A study of Homo sapiens with 12 samples.

Results

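The transcripts encoded by the human mitochondrial genome were examined in DLD-1 colorectal adenocarcinoma cells after auxin was added to remove SPT6 or PAF1. Members were the human rows of the count table whose gene name starts with MT-, which gave 37 of the 60666 human rows: 13 protein-coding genes, 2 ribosomal RNAs and 22 transfer RNAs. SPT6 is an elongation factor and histone chaperone of RNA polymerase II, and PAF1 belongs to the PAF1 complex, which acts with the same polymerase. Both act in the nucleus.

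The groups were SPT6-AID cells (genotype SPT6-AID OsTIR1) and PAF1-AID cells (genotype PAF1-AID OsTIR1), each at 0, 2 and 6 h of 500 µM auxin, with 2 libraries in each of the 6 groups. All cells express OsTIR1 constitutively, the plant receptor that marks a degron-tagged protein for destruction when auxin is present. Untagged cells given auxin are not among these groups, and the degron acts on protein and not on mRNA, so the counts do not check the removal. A change with time combines loss of the protein with any effect of auxin. The labels do not say whether the 2 libraries of a group came from separate cultures or whether a line is a single clone, so the p-values rest on differences between libraries that may be technical replicates. The line's labelled origin was checked: EPCAM was at 802 to 1032 CPM (counts scaled to library size), and KRT8, KRT18, KRT20, CDH1 and CDX2 were detected in every library, whereas VIL1 did not exceed 0.250 CPM and LGALS4 did not exceed 0.581 CPM. Of the markers of other cells, HBB was highest at 7.17 to 37.9 CPM, followed by COL1A1 (0.591 to 3.60 CPM), VWF (0.364 to 1.98 CPM), CD14 (0.182 to 1.36 CPM), PECAM1 (0 to 1.17 CPM) and CD79A (0.116 to 0.601 CPM). PTPRC had at most 11 counts in any library, CD3E, COL3A1, CDH5 and PDGFRA had at most 2, and COL1A2 had 0 in all.

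The mitochondrial genome is a small circle in the mitochondrial matrix. It is transcribed by its own polymerase, POLRMT, and not by RNA polymerase II. Both strands are read into long precursors that carry many genes, and excision of the transfer RNAs frees the messenger and ribosomal RNAs. The proteins it encodes are core subunits of the respiratory chain and of ATP synthase, while most subunits of those complexes, and all proteins that transcribe and process mitochondrial RNA, are encoded in the nucleus and made through RNA polymerase II. Mitochondrial mRNAs receive short poly(A) tails, added by the polymerase MTPAP.

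These tails bear on what a poly(A)-selected library can hold, so the 3′ ends of the coding members are shown first. In 6 of the 13, the annotated gene stops before its reading frame has a whole stop codon, and added A residues complete it. The last 15 bases of each are given 5′ to 3′ on the coding strand, from GENCODE release 29 transcripts (GRCh38, chromosome M), with the bases left after the last whole codon in capitals, or the last 3 bases where the frame is complete.
MT-ND1: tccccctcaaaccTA
MT-ND2: tactaataatcttaT
MT-CO3: attgatgagggtctT
MT-ND3: tagactgaaccgaaT
MT-ND4: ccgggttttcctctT
MT-CYB: tactcaaatgggccT
MT-CO1: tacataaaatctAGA
MT-CO2: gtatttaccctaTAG
MT-ATP8: cccccacaatccTAG
MT-ATP6: cacgacaacacaTAA
MT-ND4L: ctactccaatgcTAA
MT-ND5: ctcctaatcacaTAA
MT-ND6: gctcgggggaatAGG

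MT-ND6 lies at chrM:14149-14673 on the minus strand and is the only 1 of the 13 coding members there. It is known for lacking a poly(A) tail. Some neighbours share bases, so a read there cannot be given to 1 gene by position alone. The 2 longest such stretches between coding members are shown. MT-ATP6 and MT-CO3 also share chrM:9207. Among transfer RNAs, MT-TC and MT-TY overlap, as do MT-TI and MT-TQ on opposite strands. MT-ATP8 and MT-ATP6, subunits of ATP synthase, overlap by 46 bases at chrM:8527-8572. MT-ND4L and MT-ND4, subunits of complex I, overlap by 7 bases at chrM:10760-10766. The shared bases stand in capitals within their plus-strand surroundings.
MT-ATP8 and MT-ATP6, chrM:8507-8592: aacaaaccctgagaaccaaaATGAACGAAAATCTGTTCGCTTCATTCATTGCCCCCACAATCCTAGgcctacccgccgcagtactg
MT-ND4L and MT-ND4, chrM:10740-10786: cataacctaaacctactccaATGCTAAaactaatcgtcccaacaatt

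Levels per length set the coding members apart from the other classes. On the RPKM scale (CPM of human counts, per kilobase of gene), averaged over the 12 libraries, MT-ND4 was highest at 3747 RPKM, followed by MT-CO2 at 3298 RPKM and MT-CO1 at 3238 RPKM. MT-CO1 and MT-CO2 encode the catalytic core of complex IV. The next were MT-ATP6 (2323 RPKM), MT-ND2 (2151 RPKM), MT-ND1 (2015 RPKM), MT-CO3 (1887 RPKM), MT-ND3 (1844 RPKM) and MT-ND4L (1716 RPKM). MT-CYB, the mitochondrial subunit of complex III, was at 1503 RPKM, MT-ND5 at 1436 RPKM and MT-ATP8 at 1182 RPKM. The ranges over libraries of neighbours in this order overlapped. Those at its ends did not: MT-ND4 ranged from 2395 to 5502 RPKM, above all libraries of MT-CYB, MT-ND5 and MT-ATP8, and MT-ATP8 ranged from 541 to 1986 RPKM.

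The remaining classes were low. MT-RNR2, the RNA of the large mitochondrial ribosomal subunit, averaged 832 RPKM, and MT-RNR1, that of the small subunit, 186 RPKM. MT-ND6 averaged 35.2 RPKM, with 22.7 to 58.2 RPKM over the libraries, which lay below every value of the other coding members. Coding rows held 94.5% of all mitochondrial counts, ribosomal rows 5.43% and transfer RNA rows 0.0237%. Poly(A) selection, the steady level of each RNA and the split of reads with nuclear copies may all shape these levels, and they cannot be told apart here.

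Of the 22 transfer RNA rows, 8 passed the filter on low counts. MT-TL1 (tRNA for leucine, chrM:3230-3304) and MT-TI (tRNA for isoleucine, chrM:4263-4331) held 63.4% of all transfer RNA counts. MT-TI starts at the base after the end of MT-ND1 (chrM:4262), and the counts do not separate a transfer RNA from its uncut precursor. Their genes are printed because they were the most counted of this class.
MT-TL1: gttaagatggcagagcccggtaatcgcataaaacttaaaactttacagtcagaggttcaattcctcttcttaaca
MT-TI: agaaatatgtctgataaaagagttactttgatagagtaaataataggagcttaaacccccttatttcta
MT-TL1 averaged 29.7 RPKM and MT-TI 27.1 RPKM. MT-TD was at 9.05 RPKM, MT-TP at 6.71 RPKM, MT-TM at 5.08 RPKM, MT-TT at 3.51 RPKM, MT-TQ at 2.57 RPKM and MT-TE at 2.01 RPKM. The other 14 transfer RNAs had at most 10 counts in any library and were not tested. MT-TK had 0 counts in all 12 libraries, which allows up to 3 counts in each by counting error alone.

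The mitochondrial share of human counts was highest in SPT6-AID cells at 6 h. In SPT6-AID cells the 37 genes took 2.39% and 2.45% of human counts at 0 h, 2.56% and 2.68% at 2 h and 3.85% and 3.92% at 6 h. In PAF1-AID cells they took 1.63% and 2.16% at 0 h, 2.65% and 2.54% at 2 h and 3.16% and 2.22% at 6 h. All 8 auxin-treated libraries lay above both 0 h libraries of their own line, and the spread between the PAF1-AID libraries was wide at 0 and 6 h. Both lines together, the auxin-treated libraries were 0.79 percentage points above 0 h (exact two-sided permutation within lines over 225 assignments, p = 0.0267). With 2 libraries against 2 in a single line, the smallest p such a test allows is 0.333.

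Split by class, 5 values were tested in the same way. Coding rows held 2.78% of human counts in auxin-treated libraries and 2.05% at 0 h (exact permutation p = 0.0267, 0.0778 after Benjamini-Hochberg adjustment over the 5 values). Ribosomal rows held 0.165% in auxin-treated libraries and 0.112% at 0 h (p = 0.0311, adjusted 0.0778, exact permutation). Transfer RNA rows held 7.11 CPM of all human counts in auxin-treated libraries and 5.09 CPM at 0 h (p = 0.0889, adjusted 0.148, exact permutation). None of these passed 0.05 after adjustment, and neither did the ratio of ribosomal to coding counts (5.88 per 100 with auxin, 5.46 per 100 at 0 h, adjusted p = 0.361, exact permutation). MT-ND6 stood at 0.729 counts per 1000 of the other coding members with auxin and at 0.739 per 1000 at 0 h (adjusted p = 0.822, exact permutation).

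**Figure D1:**
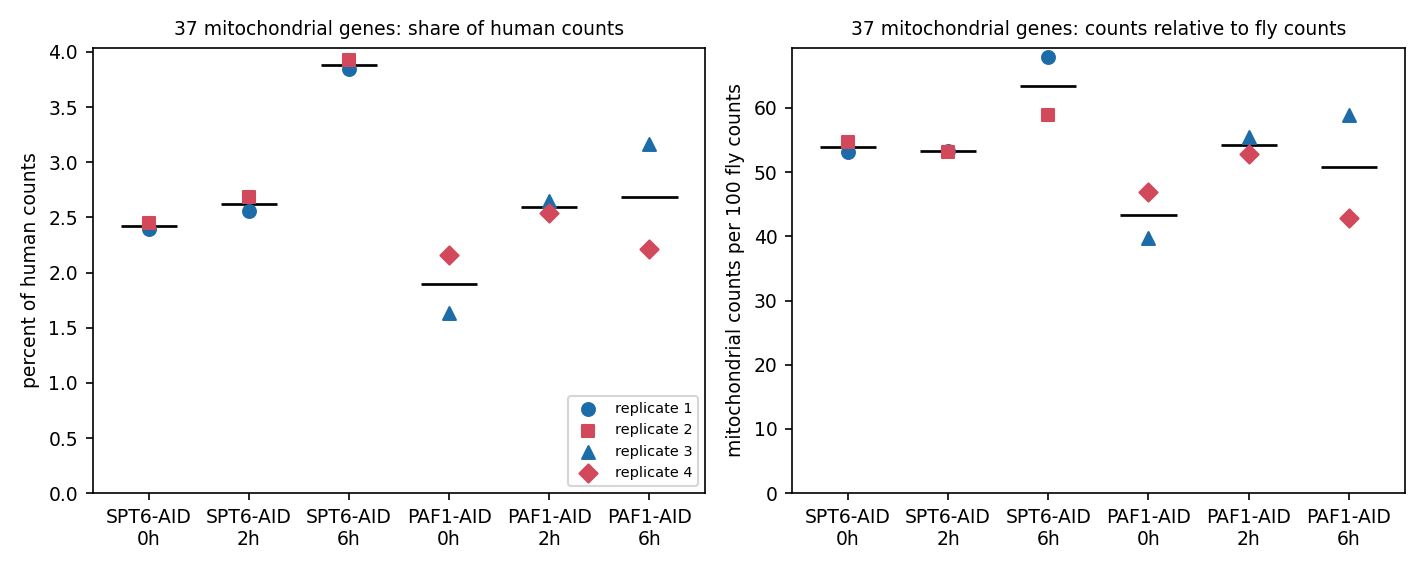
Counts of the 37 mitochondrial genes in each library, as percent of human counts (left) and per 100 fly counts (right), by line and hours of auxin; points are libraries and bars are group means (n = 2). The SPT6-AID 6h libraries stood at 3.85% and 3.92% of human counts, above all others, whereas on the fly scale the PAF1-AID 6h libraries spread from 42.8 to 58.9 per 100.

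In SPT6-AID cells at 6 h against 0 h, 8 of the 23 tested mitochondrial genes rose and none fell (adjusted p below 0.05 in edgeR's quasi-likelihood fit, with Benjamini-Hochberg adjustment over all 20791 genes tested). Over all genes the same test called 25.2% in either direction and 8.76% as higher. The 8 were MT-CO1, MT-CO3, MT-ND4, MT-ND5, MT-ND6, MT-RNR1, MT-RNR2 and MT-TI. The 13 coding members had a median log2 fold change of 0.66, within 0.61 to 0.71, against a median of 0.04 for all genes tested. All 13 were higher in both 6 h libraries than in both 0 h libraries, which held for 27.7% of all genes tested. The 13 share the same libraries and moved together (SD over the 13 genes 0.03), so these are not 13 separate results.

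The called coding members differed from the uncalled ones more in standard error than in size: the SE was 0.19 to 0.21 for the called and 0.22 to 0.34 for the uncalled. MT-CO1 had 7011 and 7387 CPM at 6 h, against 4538 and 4559.5 CPM at 0 h, a log2 fold change of 0.66 ± 0.19 (SE, n = 2 each, adjusted p = 0.0264, edgeR). Both 6 h libraries stood clear of both 0 h libraries. MT-ND4 had 7249 and 7932 CPM at 6 h, against 4648 and 4923 CPM at 0 h (0.67 ± 0.19, adjusted p = 0.0266, edgeR). The complex I subunit MT-ND5 changed by 0.70 ± 0.21 (adjusted p = 0.0363, edgeR) and the complex IV subunit MT-CO3 by 0.65 ± 0.20 (adjusted p = 0.0349, edgeR). MT-ND3, another complex I subunit, had the largest value of the 13, 0.71 ± 0.34, and did not pass (adjusted p = 0.165, edgeR). It had 683 and 1140 CPM at 6 h, against 451 and 661 CPM at 0 h, so replicates 1 and 2 differed widely at both times.

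The uncalled coding members had like values. MT-CO2 was at 0.66 ± 0.22 (adjusted p = 0.0521, edgeR), MT-CYB at 0.70 ± 0.24 (0.0557) and MT-ND1 at 0.66 ± 0.23 (0.0606). MT-ATP6 was at 0.62, MT-ND4L and MT-ND2 at 0.67 and MT-ATP8 at 0.61, with adjusted p between 0.0822 and 0.172. In all, 11 of the 13 coding members had an unadjusted p below 0.05. The share of all genes at that cut was not counted here or below, and is at least the share called (25.2% in this comparison). Counts at an unadjusted p are therefore not read as an excess over other genes.

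MT-ND6, read from the opposite strand, rose by about as much as the coding members of the plus strand. It had 29.3 and 25.3 CPM at 6 h, against 19.7 and 15.5 CPM at 0 h (log2 fold change 0.63 ± 0.19, adjusted p = 0.0354, edgeR). The groups did not overlap. MT-ND6 counts are low beside those of the other coding members, and the strand setting of the counting is not given. The part of plus-strand reads in the MT-ND6 counts was not tested.

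Both ribosomal RNAs rose. MT-RNR1 had 212 and 344 CPM at 6 h, against 124 and 167 CPM at 0 h (0.93 ± 0.26, adjusted p = 0.0259, edgeR). MT-RNR2 had 1826 and 2207 CPM at 6 h, against 1067 and 1179 CPM at 0 h (0.85 ± 0.25, adjusted p = 0.029, edgeR). For MT-RNR2 the later libraries stood well clear of the earlier ones, while the 2 replicates of MT-RNR1 at 6 h lay far apart.

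Of the 8 transfer RNAs tested, MT-TI rose, with 174 and 94 counts (3.78 and 3.28 CPM) at 6 h, against 105 and 80 counts (1.87 and 1.49 CPM) at 0 h (log2 fold change 1.07 ± 0.33, adjusted p = 0.0363, edgeR). MT-TL1 had 4.22 and 3.39 CPM at 6 h, against 2.23 and 1.78 CPM at 0 h, and did not pass (0.93 ± 0.34, adjusted p = 0.0734, edgeR). The remaining 6 had values from 0.53 (MT-TP) to 1.70 (MT-TQ), on at most 65 counts in any library. The part of uncut precursor in the counts of this class was not tested.

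These calls rest on few libraries. Without SPT6-AID 0h replicate 1 or without SPT6-AID 6h replicate 2 none of the 23 was called, and without SPT6-AID 0h replicate 2 only 1 was, while the coding median stayed between 0.58 and 0.70 in those 3 fits. Some low markers of other cells also rose at 6 h. The summed blood list of 5 genes, most of it HBB, was at 12.9 and 39.5 CPM at 6 h, against 8.39 and 24.7 CPM at 0 h, and CD14 and CD79A were called among its 3 tested genes. The summed endothelial list of 3 genes was at 2.45 and 1.94 CPM at 6 h, against 1.27 and 0.382 CPM at 0 h, and PECAM1 was called of its 2 tested genes. The 1 fibroblast gene tested, COL1A1, was not called (-0.64). The part of these in the mitochondrial values was not tested.

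At 2 h in SPT6-AID cells none of the 23 was called (background 0.548% of all genes), and none had an unadjusted p below 0.05. DESeq2's Wald test and limma-voom also called none. The coding median was 0.11, from -0.07 for MT-ATP8 to 0.16 for MT-ND3. MT-CO1 had 4676 and 4953 CPM at 2 h, against 4538 and 4559.5 CPM at 0 h. Of the 13 coding members, 3 had groups that did not overlap, all higher, where 14.7% of all genes were higher in this way. From 2 to 6 h the coding median was 0.55, with 15 of the 23 at an unadjusted p below 0.05 and none called by edgeR (background 15.7%). DESeq2's Wald test called 7 and limma-voom 2, where they called 3615 and 3474 of all 20791 genes.

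In PAF1-AID cells at 6 h against 0 h, 1 of the 23 rose (background 10.9% in either direction, 4.2% higher). MT-RNR2 had 1945 and 1098 CPM at 6 h, against 685 and 936 CPM at 0 h (log2 fold change 0.91 ± 0.25, adjusted p = 0.0411, edgeR). The 6 h libraries lay above the 0 h ones but far from each other. The call was lost in 9 of the 12 fits that left out a library, including those without PAF1-AID 0h replicate 3 or PAF1-AID 6h replicate 3, and kept without SPT6-AID 6h replicate 1, SPT6-AID 6h replicate 2 or PAF1-AID 6h replicate 4. The number of members called was 4 without PAF1-AID 0h replicate 4 and 3 without PAF1-AID 6h replicate 4. DESeq2's Wald test called 7 members and limma-voom 1. Over all 20791 genes they called 2987 and 2378, against 2267 by edgeR. MT-RNR1 had 233 and 159 CPM at 6 h, against 106 and 147 CPM at 0 h, and did not pass (0.63 ± 0.26, adjusted p = 0.165, edgeR).

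None of the coding members passed in PAF1-AID cells at 6 h, and 10 of the 13 had an unadjusted p below 0.05. Their median log2 fold change was 0.67, but the values ranged from 0.36 for MT-CO1 to 0.82 for MT-ND2, wider than in SPT6-AID cells (SD over the 13 genes 0.14, against 0.03 in SPT6-AID cells). MT-CYB, at 0.78 ± 0.24, had the smallest adjusted p of them (0.0641, edgeR). MT-ND2 had 2895 and 2011 CPM at 6 h, against 940 and 1832 CPM at 0 h. MT-CO1 had 5792 and 3936 CPM at 6 h, against 3365 and 4211 CPM at 0 h. It was the 1 coding member whose groups overlapped (12 of 13 did not, background 28.1% higher), and the 13 are again not separate results. The spread came from both times: replicate 3 was the higher library at 6 h for all 13 coding members and the lower one at 0 h for 12 of them, the exception being MT-ND6. The coding median was 0.39 without PAF1-AID 0h replicate 3 and also 0.39 without PAF1-AID 6h replicate 3. It was 0.93 without PAF1-AID 0h replicate 4 and 0.87 without PAF1-AID 6h replicate 4.

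At 2 h in PAF1-AID cells the coding median was already 0.60, from 0.35 for MT-CO1 to 0.74 for MT-ND2, and no member was called by edgeR (background 0.149%), DESeq2's Wald test or limma-voom, with 8 of the 23 at an unadjusted p below 0.05. All 13 coding members, again not separate results, had groups that did not overlap (background 17.2% higher). MT-CYB had 1802 and 1605 CPM at 2 h, against 783 and 1287 CPM at 0 h. Without PAF1-AID 0h replicate 3 the median was 0.31, and without PAF1-AID 0h replicate 4 it was 0.85. From 2 to 6 h the median was 0.06, with none called (background 0.875%) and none at an unadjusted p below 0.05 or by the other 2 tests.

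**Figure D2:**
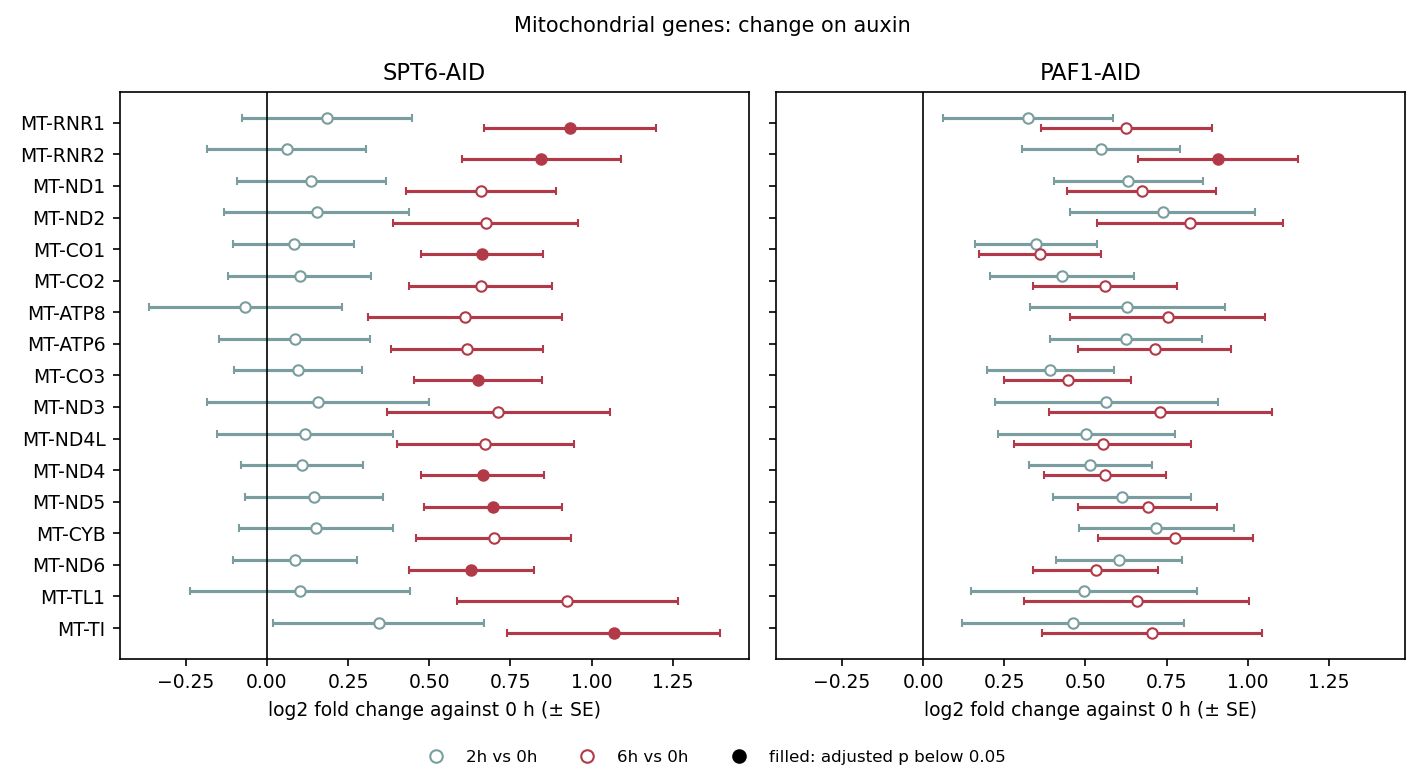
Log2 fold change against 0 h for the 15 coding and ribosomal genes and the 2 most counted transfer RNAs, at 2 and 6 h in SPT6-AID (left) and PAF1-AID cells (right); bars are ± SE from the edgeR fit (n = 2 libraries a group) and filled points have an adjusted p below 0.05. In SPT6-AID cells the 13 coding genes at 6 h sit between 0.61 and 0.71, apart from the 2 h points, and in PAF1-AID cells the 2 times lie side by side.

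The lines' responses were compared directly. At 2 h the SPT6-AID response minus the PAF1-AID response had a coding median of -0.47, from -0.70 to -0.27, and at 6 h of 0.00, from -0.15 to 0.30. The 2 h median was -0.22 without PAF1-AID 0h replicate 3 and -0.71 without PAF1-AID 0h replicate 4. The 6 h median was 0.25 without PAF1-AID 0h replicate 3, 0.30 without PAF1-AID 6h replicate 3 and -0.27 without PAF1-AID 0h replicate 4, and it lay between -0.13 and 0.13 without any other library. No member was called at either time (backgrounds 0.0337% at 2 h and 3.74% at 6 h), none had an unadjusted p below 0.05, and DESeq2's Wald test and limma-voom called none. The earlier course in PAF1-AID cells was therefore not established as a difference between the lines. Before auxin, PAF1-AID cells had lower values than SPT6-AID cells, with a coding median of -0.52 and a range of -0.74 to -0.15. That median was -0.28 without PAF1-AID 0h replicate 3 and -0.90 without PAF1-AID 0h replicate 4. None was called (background 0.0337%), also not by the other 2 tests, and 10 of the 23 had an unadjusted p below 0.05. MT-CO1 had 3365 and 4211 CPM in PAF1-AID cells at 0 h, against 4538 and 4559.5 CPM in SPT6-AID cells at 0 h.

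All these values are relative to the other human RNA in a library, so more mitochondrial RNA and less of other RNA cannot be told apart from them, and neither can RNA per cell and cell number. The libraries also hold fly counts, 3.94% to 6.25% of the total, and how that material was added is not given by the labels. Scaled by fly counts, the coding median at 6 h was 0.22 in SPT6-AID cells and 0.30 in PAF1-AID cells. No member was called in either. Over all 20791 genes that fit called 958 higher and 5842 lower in SPT6-AID cells, and 296 higher and 2865 lower in PAF1-AID cells. On that scale the median of all genes was -0.39 in SPT6-AID cells and -0.37 in PAF1-AID cells. Relative to the median gene, the coding members stood 0.62 above it in SPT6-AID cells at 6 h on either scale, and 0.66 (TMM) or 0.67 (fly) above it in PAF1-AID cells. A change of scale moves all genes of a comparison by nearly the same amount. This likeness between the scales was therefore fixed in advance and adds nothing on the rise. At 2 h the fly-scaled coding medians were -0.02 in SPT6-AID cells and 0.38 in PAF1-AID cells. MT-CO1 in PAF1-AID cells at 6 h turned to -0.02 by fly counts from 0.36 by TMM. Per 100 fly counts, mitochondrial genes had 68.0 and 58.9 counts in SPT6-AID cells at 6 h, against 53.2 and 54.6 at 0 h.

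The balance among the members followed the replicate number in SPT6-AID cells more than the time. These members were chosen after their values were seen. MT-ND3 made up 1.92%, 2.02% and 1.86% of mitochondrial counts at 0, 2 and 6 h in replicate 1, and 2.62%, 2.66% and 2.78% in replicate 2. MT-CO3 made up 5.89%, 5.80% and 5.85% in replicate 1, and 4.66%, 4.66% and 4.52% in replicate 2. MT-ND3 is a short gene of 346 bases and MT-CO3 has 784 bases. Counts of RNAs without a long poly(A) tail also differed by number: their summed level, nearly all of it RN7SL1, was 78.8 to 100.4 CPM in replicate 1 and 34.6 to 42.3 CPM in replicate 2. The blood list was at 7.75 to 12.9 CPM in replicate 1 and at 24.7 to 39.5 CPM in replicate 2. The part of either in the balance was not tested.

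In PAF1-AID cells more members differed in share by time, and fewer by number, than in SPT6-AID cells. The shares of 11 of the 15 coding and ribosomal members did not overlap between 6 h and 0 h, against 1 of 15 in SPT6-AID cells, and those of 2 of 15 did not overlap between the replicate numbers, against 12 of 15 in SPT6-AID cells. These counts have no background over all genes, and the shares of 1 library depend on each other. Times were compared as 2 libraries against 2 and numbers as 3 against 3. Groups of 2 escape overlap more easily, so counts by time and by number cannot be set against each other. MT-CO1 made up 17.6% and 17.5% at 6 h, against 22.3% and 19.7% at 0 h, and MT-CYB made up 6.29% to 6.48% at 6 h, against 5.19% to 6.02% at 0 h. PAF1-AID 0h replicate 3, 1 of the 2 libraries at 0 h in these counts, stood apart from the others. MT-CO1 made up 22.3% of its mitochondrial counts and 17.5% to 19.7% in the other 5 PAF1-AID libraries, and MT-ND2 made up 6.23% of them and at least 8.57% in the others. This library also had the highest level of RNAs without a long poly(A) tail (116 CPM, against 59.6 to 89.7 CPM in the other 5) and the lowest mitochondrial share.

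**Figure D3:**
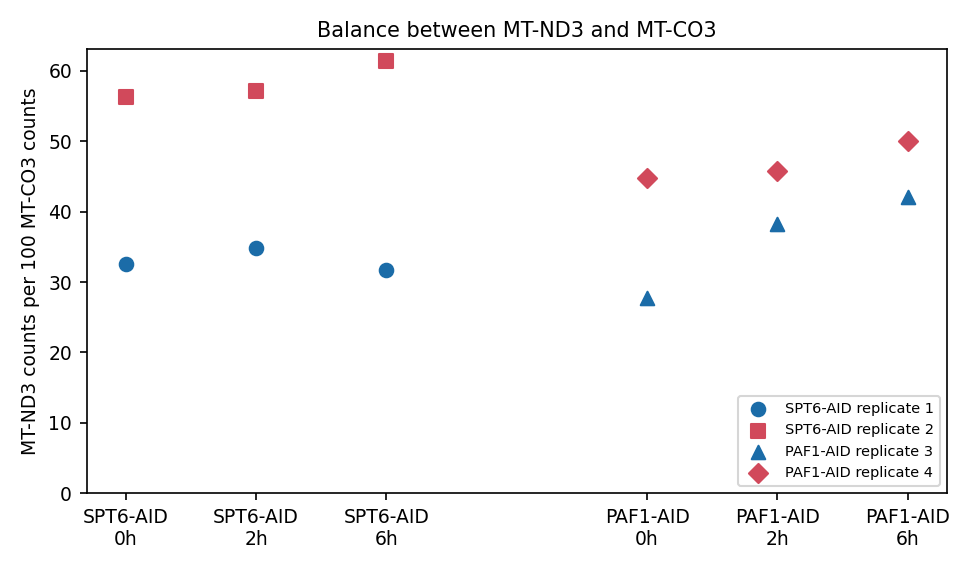
MT-ND3 counts per 100 MT-CO3 counts in each library, by line and hours of auxin; symbols mark the replicate number. Replicate 2 stayed between 56.3 and 61.4 and replicate 1 between 31.7 and 34.8 at all 3 times in SPT6-AID cells, and PAF1-AID 0h replicate 3 was the lowest of all at 27.8.

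Nuclear copies of mitochondrial DNA complicate the counts. Of 415 nuclear rows named after members, 190 had counts, and together they held 20.8 to 21.9 counts per 100 mitochondrial counts in every library. The 10 most counted held 97.9% of these. The foremost, MTCO1P12, MTATP6P1 and MTND2P28, lie within a few kilobases on chromosome 1 (chr1:631074-632616, chr1:633696-634376 and chr1:629640-630683, plus strand). A pair of matching stretches shows how alike a copy and its gene are, with the differing bases in capitals.
MT-CO1, chrM:5993-6052: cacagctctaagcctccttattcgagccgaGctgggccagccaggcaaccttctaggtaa
MTCO1P12, chr1:631163-631222: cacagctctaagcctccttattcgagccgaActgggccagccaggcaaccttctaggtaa
MT-ATP6, chrM:8625-8684: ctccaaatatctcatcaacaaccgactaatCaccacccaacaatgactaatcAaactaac
MTATP6P1, chr1:633794-633853: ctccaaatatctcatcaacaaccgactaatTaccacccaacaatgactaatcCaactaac
Over its whole length MTCO1P12 was 98.6% identical to MT-CO1, with 20 differing bases and 1 gap in 1543 aligned positions. MTATP6P1 was 98.5% identical to MT-ATP6, and 46.7% of its stretches of 50 bases occur letter for letter in MT-ATP6.

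The copies stayed near a fixed ratio to their genes, some more closely than others. MTATP6P1 had a median of 86.6 counts per 100 of MT-ATP6 (coefficient of variation 1.98% over 12 libraries), and MTCO1P12 had 41.5 per 100 of MT-CO1 (1.40%). MTND2P28 had 31.7 per 100 of MT-ND2 (6.44%), with 35.1 to 36.7 in the 3 libraries of SPT6-AID replicate 2 and 30.8 to 32.5 in the other 9. The widest variation among the 10 was that of MTCO1P40, at 10.3%. Of the 35 copies tested, 9 rose in SPT6-AID cells at 6 h and 4 in PAF1-AID cells at 6 h, with medians of 0.65 in both (backgrounds 8.76% and 4.2% higher). The 9 became 1 without SPT6-AID 0h replicate 1, 0 without SPT6-AID 0h replicate 2 and 2 without SPT6-AID 6h replicate 2, and the 4 became 0 without PAF1-AID 0h replicate 3 or PAF1-AID 6h replicate 3. MTCO1P12 changed by 0.67 ± 0.18 in SPT6-AID cells (adjusted p = 0.0212, edgeR), beside 0.66 for MT-CO1. How reads that match more than 1 place were counted is not given in the sources used here, so the split between a gene and its copies is uncertain. When the counts of all copies were added to their genes, 8 members were again called in SPT6-AID cells at 6 h, an alternative chosen after the data were seen.

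**Figure D4:**
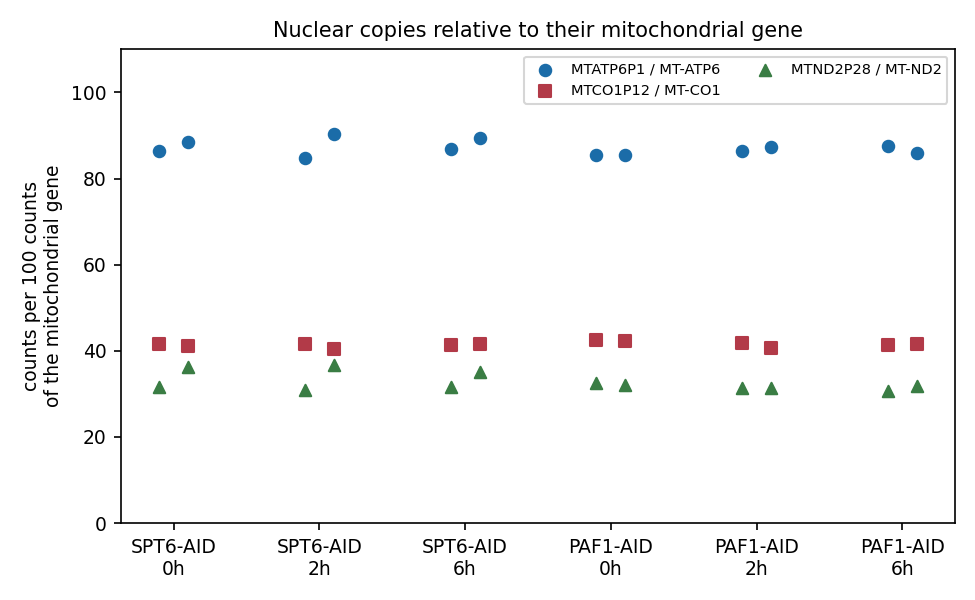
Counts of the 3 most counted nuclear copies per 100 counts of their mitochondrial gene, by group, with 1 point per library. MTATP6P1 stayed between 84.7 and 90.4, MTCO1P12 between 40.5 and 42.6 and MTND2P28 between 30.8 and 36.7, with MTND2P28 highest in SPT6-AID replicate 2 at all 3 times.

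Over the 12 libraries, the nuclear genes whose log2 CPM ran most alike to the summed coding members were such copies: MTND5P11 (Pearson r 0.986), MTND4P12 (0.980), MTATP6P1 (0.979), MTCO2P12 (0.979) and MTRNR2L8 (0.968). With copies left aside they were ACTA1 (0.948), BAG6 (0.940), GMDS (0.935), TUBA3C (0.931) and PRKCSH (0.931). These are descriptions over libraries that share lines and times.

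Many nuclear genes that serve mitochondrial DNA and RNA fell in SPT6-AID cells at 6 h, when no mitochondrial transcript did. Of 46 tested genes of a 48-gene list (transcription, replication, RNA processing, modification and decay, and their nuclear regulators), 26 fell and none rose at 6 h against 0 h, with a median of -0.46 (background 16.4% lower, 8.76% higher). Counts of those called were 17 without SPT6-AID 0h replicate 2, and also 17 without SPT6-AID 6h replicate 2. MTPAP, the mitochondrial poly(A) polymerase, had 17.7 and 11.3 CPM at 6 h, against 46.7 and 42.4 CPM at 0 h (log2 fold change -1.61 ± 0.19, adjusted p = 0.000318, edgeR). NRF1, a transcription factor for nuclear genes of respiration, had 8.0 and 5.45 CPM at 6 h, against 21.4 and 22.3 CPM at 0 h (-1.70 ± 0.24, adjusted p = 0.000739, edgeR). Both genes stood far below their 0 h levels in each library.

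Others with the smallest p were NSUN4, a methyltransferase for mitochondrial ribosomal RNA (-1.69), PPRC1, a coactivator of the same regulatory programme as NRF1 (-1.49), TWNK, the mitochondrial DNA helicase (-1.11), and PDE12, which trims poly(A) from mitochondrial RNA (-0.98). Their adjusted p ran from 0.000379 to 0.000986 (edgeR). The polymerase POLRMT itself was at -0.43 (adjusted p = 0.0163, edgeR) and the DNA-packaging factor TFAM at -0.39 (adjusted p = 0.028, edgeR). LRPPRC, which binds mitochondrial mRNAs and maintains their tails, did not pass (0.06 ± 0.18, adjusted p = 0.847, edgeR). These 3 were chosen after their values were seen. At 2 h edgeR called PDE12 alone (background 0.462% lower), as many genes as limma-voom and fewer than the 3 of DESeq2's Wald test. Over all 20791 genes edgeR called 114, limma-voom 157 and DESeq2's Wald test 509. PDE12 fell (-0.67 ± 0.12, adjusted p = 0.0487, edgeR), with 44.6 and 49.2 CPM at 2 h, against 75.8 and 73.1 CPM at 0 h. That call was lost when any 1 of the 4 libraries compared was left out.

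In PAF1-AID cells at 6 h, 12 of the 46 fell and 3 rose, with a median of -0.19 (background 6.7% lower, 4.2% higher). FASTKD1, one of the FASTK family of mitochondrial RNA-binding proteins, fell (10.1 and 9.76 CPM at 6 h, against 24.7 and 20.6 CPM at 0 h; -1.19 ± 0.16, adjusted p = 0.00238, edgeR). FASTKD5, of the same family and needed to process precursor ends that no transfer RNA marks, rose (102 and 90.5 CPM at 6 h, against 41.6 and 47.2 CPM at 0 h; 1.11 ± 0.15, adjusted p = 0.00275, edgeR). MGME1, a mitochondrial DNA nuclease, was at -0.94, the ribosomal RNA methyltransferase TFB1M at -1.07 and the primase PRIMPOL at -0.89. PDE12 rose by 0.71 ± 0.12 (adjusted p = 0.0064, edgeR), opposite to its fall in SPT6-AID cells, and the test of that difference passed (-1.69 ± 0.17, adjusted p = 0.00347, edgeR). It was 1 of 6 genes of the list whose SPT6-AID response was lower than the PAF1-AID response at 6 h (background 3.12% lower). The count of 15 called was 3 without PAF1-AID 6h replicate 3, 6 without replicate 4 of either 0 h or 6 h, and 7 without PAF1-AID 0h replicate 3. At 2 h none of the 46 was called by edgeR (background 0.149%), with 3 at an unadjusted p below 0.05. DESeq2's Wald test called 1 of the 46, and 274 of all 20791 genes.

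**Figure D5:**
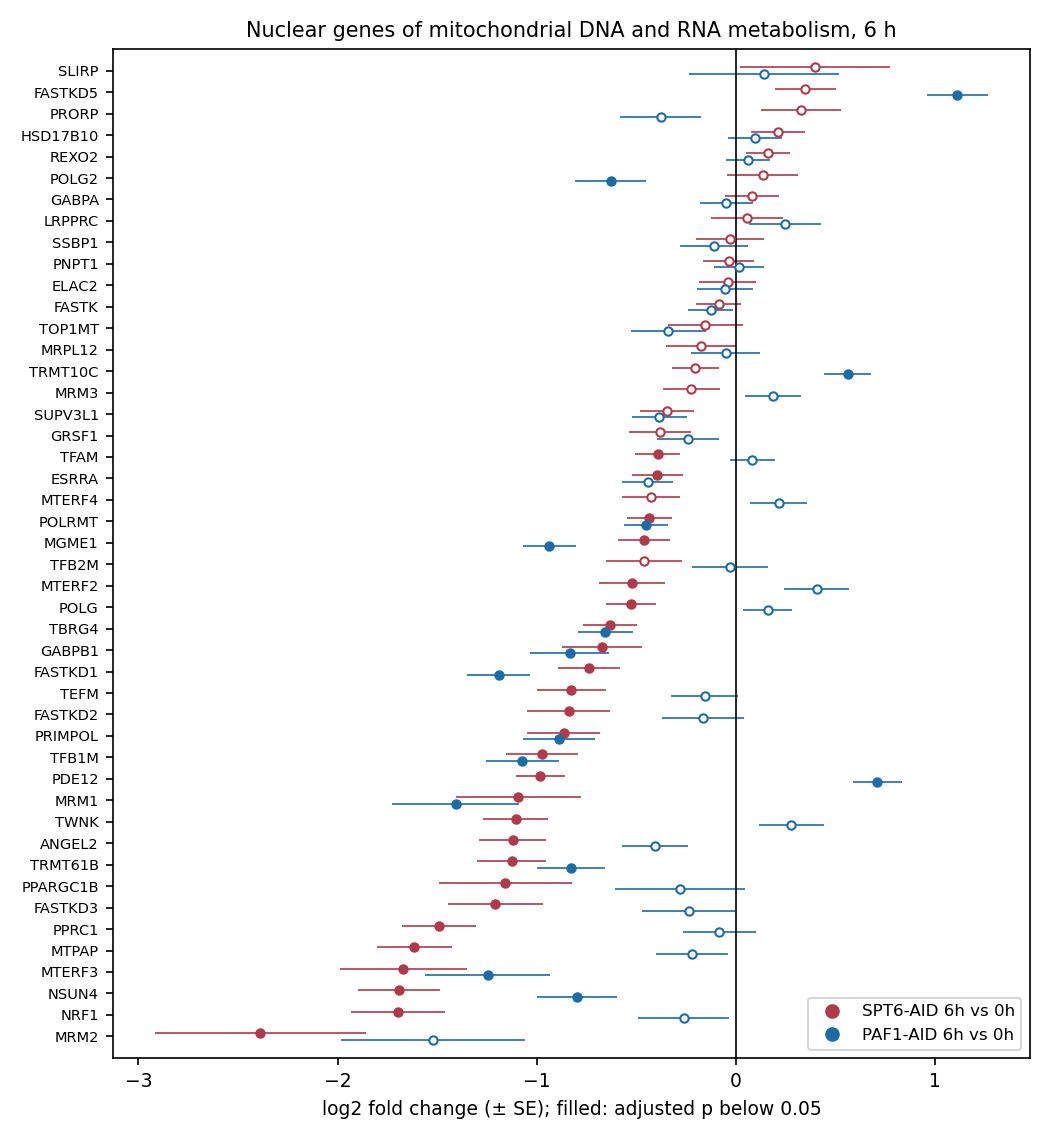
Log2 fold change at 6 h against 0 h (± SE, n = 2 libraries a group) of the 46 tested nuclear genes of mitochondrial DNA and RNA metabolism in SPT6-AID and PAF1-AID cells, ordered by the SPT6-AID value; filled points have an adjusted p below 0.05. In SPT6-AID cells 26 filled points lie below 0 and none above, and PDE12, TRMT10C and FASTKD5 are filled above 0 in PAF1-AID cells.

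Few nuclear subunits of the same respiratory complexes were called. Of 78 tested, 4 rose and 1 fell in SPT6-AID cells at 6 h (background 25.2% in either direction). Their median was 0.31, against 0.04 for all genes tested, with 71 of the 78 above 0 and 24 at an unadjusted p below 0.05. NDUFA2, a complex I subunit, was at 0.77 ± 0.13 (adjusted p = 0.00228, edgeR), ATP5MG and ATP5MF of ATP synthase were at 0.49 and 0.46, and COX6A1 of complex IV at 0.43. NDUFV3, of complex I, fell (-0.74 ± 0.17, adjusted p = 0.0107, edgeR). The count moved with the libraries used, from 1 without SPT6-AID 0h replicate 1 or SPT6-AID 6h replicate 2 to 35 without SPT6-AID 6h replicate 1. It was 2 without SPT6-AID 0h replicate 2, SPT6-AID 2h replicate 1 or either PAF1-AID 2h library, and 3 without either PAF1-AID 0h library. In PAF1-AID cells at 6 h NDUFA2 alone was called (0.59 ± 0.13, adjusted p = 0.0206, edgeR), against a background of 10.9% in either direction. The median of the 78 was 0.14. The NDUFA2 call was lost without either library of PAF1-AID 0h or of PAF1-AID 6h. At 2 h none of the 78 was called in either line (backgrounds 0.548% in SPT6-AID and 0.149% in PAF1-AID cells). None had an unadjusted p below 0.05, and DESeq2's Wald test and limma-voom called none.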

How the data were processed

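Poly(A)-selected RNA was sequenced from 12 libraries. Per the labels' protocols, the library kit keeps strand. The submitters' processing notes name cutadapt 1.14, STAR 2.7.5, featureCounts 2.0.0, GRCh38 and BDGP6; the annotation release, strand setting and treatment of multi-mapped reads are not given in the sources used here. The deposited table holds the authors' raw read counts per gene, not normalized, and a transcript and gene length for each row.

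Human rows passing edgeR's filterByExpr (20791 genes) were scaled by TMM and fitted with 6 group means over all 12 libraries (6 residual degrees of freedom; R 4.3.3, edgeR 4.0.16). Contrasts were tested by edgeR's quasi-likelihood test with Benjamini-Hochberg adjustment over all genes, at a threshold of 0.05; the standard error is the log2 fold change over the square root of F. CPM are TMM-scaled; those of marker genes, and RPKM, are per total human counts. The fit was also run on counts simulated from its own dispersions, with libraries independent of each other. That run does not bear on the likeness of same-numbered libraries. Total counts ran from 31957953 to 115904780 per library, so counting error is small for coding members and large for transfer RNAs; the floor given for a count of 0 covers counting error only. Libraries of a group differed beyond sampling noise (chi-square per degree of freedom 33.6 to 67.3).

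Named genes were all coding and ribosomal members, transfer RNAs passing the filter, up to 6 pathway genes with the smallest p in each comparison with 0 h, and the 5 most alike nuclear genes. The members and gene lists were chosen with earlier results of these data known. Alternatives were other scalings, including fly totals, other filters, DESeq2 1.42.0, limma 3.58.1 voom, fits within 1 line, replicate numbers as a block, omission of each library, and other denominators of the share. Sequences and positions came from GENCODE release 29 and copies were aligned with free ends. A mitochondrial share of the fly counts was planned; the fly rows carry no gene names, so it was not computed here.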

Additional observations from a re-analysis of the deposited data

Results flagged for a closer look

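No mitochondrial gene responded differently in the lines by the test of the difference. Among the nuclear genes of mitochondrial DNA and RNA metabolism, 6 did at 6 h (edgeR quasi-likelihood test of the SPT6-AID minus the PAF1-AID response, Benjamini-Hochberg adjusted over all genes; background 3.74%), all with a lower value in SPT6-AID cells. PDE12 differed by -1.69 ± 0.17 (SE, adjusted p = 0.00347, edgeR), and this call held in all 22 alternatives tried. It had 39.8 and 35.6 CPM in SPT6-AID cells at 6 h, against 75.8 and 73.1 CPM at 0 h, and 114 and 106 CPM in PAF1-AID cells at 6 h, against 64.7 and 70.0 CPM at 0 h. TWNK differed by -1.38 (adjusted p = 0.0159, edgeR), with 42.9 and 38.8 CPM in SPT6-AID cells at 6 h, against 77.9 and 98.0 CPM at 0 h, and 99.2 and 98.1 CPM in PAF1-AID cells at 6 h, against 75.3 and 87.3 CPM at 0 h.

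PPRC1 differed by -1.41 (adjusted p = 0.0213, edgeR), MTPAP by -1.39 (adjusted p = 0.0216, edgeR) and NRF1 by -1.43 (adjusted p = 0.0416, edgeR). TRMT10C, a subunit of the enzyme that cuts the 5′ end of mitochondrial transfer RNAs, differed by -0.76 (adjusted p = 0.0366, edgeR); it was chosen after its values were seen. Of 22 alternatives each, the call held in 17 for TWNK, 14 for PPRC1, 14 for MTPAP, 8 for NRF1 and 7 for TRMT10C, and none of the 5 passed with fly counts as library sizes.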

How the results depend on the processing

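The number of mitochondrial genes called depended on the filter, the tool and the libraries. In SPT6-AID cells at 6 h against 0 h (8 called), it was 0 by fly counts and 16 with no filter. It was 13 with a filter of 1 CPM, 18 with the replicate block and 15 by DESeq2's Wald test. The totals over all genes moved too, from 5230 of 20791 in the main fit to 10683 with the block and 5440 by DESeq2's Wald test. They were 6800 of 20791 by fly counts, 5781 of 38744 with no filter and 4054 of 14895 at 1 CPM. In SPT6-AID cells at 6 h against 2 h (0 called), it was 1 with DESeq2's size factors and 3 by total counts. It was 13 with no filter, 3 at 1 CPM, 17 with the replicate block and 5 in the line alone. Limma-voom called 2 members and 3474 genes in all, and DESeq2's Wald test 7 and 3615. Over all genes that comparison called 3273 in the main fit, 8466 with the block and 4003 of 38744 with no filter. It called 3096 with DESeq2's size factors, 2795 by total counts, 2302 of 14895 at 1 CPM and 1940 of 20377 in the line alone. In PAF1-AID cells at 6 h against 0 h (1 called), it was 0 by fly counts and 12 with no filter. It was 2 at 1 CPM, 15 with the block, 0 in the line alone and 7 by DESeq2's Wald test. Over all genes 2267 were called in the main fit, 3161 by fly counts, 7958 with the block and 2987 by that Wald test. With no filter 2851 of 38744 were called, with 2018 of 14895 at 1 CPM and 2436 of 19401 in the line alone. PAF1-AID cells at 2 h against 0 h (0 called) had 5 with no filter and 7 with the block. Over all genes 274 of 38744 and 1452 of 20791 were called in these 2 fits. The 0 h comparison of the lines (0 called) had 2 with no filter. There 317 of 38744 genes were called with no filter and 2438 of 20791 with the block. The block gave 7 in that comparison, but no number occurs in both lines, so it pairs nothing there and only removes spread within each line. SPT6-AID cells at 2 h against 0 h, PAF1-AID cells at 6 h against 2 h and both response differences had 0 under all alternatives run.

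Leaving out 1 library gave 0 to 12 calls in SPT6-AID cells at 6 h against 0 h, 0 to 2 at 6 h against 2 h, 0 to 4 in PAF1-AID cells at 6 h against 0 h, and 0 to 0 in the other comparisons. The mitochondrial share with auxin minus 0 h was 6.76 per 100 fly counts (exact permutation p = 0.107), weaker than over human counts; leaving out 1 library gave 0.658 to 0.921 percentage points (exact permutation p 0.0267 to 0.0667), with p over 0.05 without SPT6-AID 0h replicate 1, SPT6-AID 0h replicate 2 or PAF1-AID 0h replicate 3. MT-CO1 in PAF1-AID cells at 6 h reversed to -0.022 by fly counts.

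Of the nuclear lists, the 26 pathway genes called in SPT6-AID cells at 6 h were 17 in the line alone and 17 to 25 with 1 library left out, and the 15 in PAF1-AID cells were 25 with the block and 3 to 16. The 5 respiratory subunits in SPT6-AID cells were 8 with DESeq2's size factors, 8 by total counts, 25 at 1 CPM, 57 with the block, 2 in the line alone, 13 by DESeq2's Wald test and 1 to 35 with 1 library left out; the 1 in PAF1-AID cells was 3 by fly counts (all lower), 20 with the block and 0 to 1. The 9 copies in SPT6-AID cells were 0 by fly counts, 19 with the block and 0 to 10, and the 4 in PAF1-AID cells 0, 18 and 0 to 5, with 12 under no filter, 1 in the line alone and 7 by DESeq2's Wald test. Over all genes at 6 h against 0 h, the block called 10683 of 20791 in SPT6-AID cells and 7958 in PAF1-AID cells. SPT6-AID cells had 5125 with DESeq2's size factors, 4864 by total counts and 4060 of 20377 in the line alone. Of the 3161 called by fly counts in PAF1-AID cells, 2865 were lower. Totals for the other settings are those given with the mitochondrial genes above. The causes of these shifts were not tested.

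Each line has only 2 replicate numbers, and the labels do not say what they share, so they were not taken to pair libraries. Deviations of same-numbered libraries correlated over all genes (r 0.70 to 0.91), and over the coding members in SPT6-AID cells (0.95 to 0.97), but not throughout in PAF1-AID cells (-0.34 to 0.94). Of the alternatives for single named genes, 947 kept direction and side of the threshold, 127 lost the call, 92 gained it and 1 reversed. Depth limits the transfer RNAs.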
